A study of Mus musculus with 16 samples.

Results

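The hypoxia response and glycolysis genes are 39 protein-coding genes picked by name from the 52636 genes of the deposited mouse count table. All 39 were in the table, and all 39 passed the filter on low counts that left 19646 genes for testing. They comprise 18 genes of glycolytic enzymes, 3 genes of glucose or lactate carriers, 3 genes of HIF alpha subunits, 2 genes of HIF prolyl hydroxylases and 13 other targets of the hypoxia response. RNA had been sequenced from endothelial cells of adult mouse liver, lung and heart that were sorted as live, CD45-negative, CD31-positive and marked by a VE-cadherin antibody injected into the living animal. The 3 groups labelled Erg and Fli1 double knockout (KO-labelled) came from liver (3 libraries), lung (3) and heart (2), and the 3 groups labelled wild type (control) likewise from liver (3), lung (3) and heart (2). All cells were taken at day 10 after tamoxifen, which the labels give as the treatment of the mice in every group. The Cre driver, the floxed alleles and the ages of the animals are not given in the labels. Erg and Fli1 are transcription factors of the ETS family, and the comparison asks what changes in endothelial cells when both are deleted.

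Cells sense oxygen through the HIF transcription factors. With oxygen, prolyl hydroxylases encoded by Egln1, Egln2 and Egln3 mark the HIF alpha subunits, VHL binds the mark, and the subunit is degraded. With little oxygen the alpha subunit persists, pairs with ARNT and switches on genes for glucose uptake, glycolysis, lactate export, mitochondrial turnover and blood vessel growth. Hif1a is the subunit most tied to glycolytic genes, and Epas1 encodes HIF-2 alpha, which is abundant in endothelium, above all in lung. Endothelial cells make much of their ATP by glycolysis even with oxygen present. HIF alpha protein is controlled mainly by its breakdown, so mRNA levels do not report HIF activity directly.

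The libraries held between 30226340 and 41449054 counts each. Levels are given as CPM, counts scaled by TMM-adjusted library size. RPKM divides CPM by the length in kilobases of all annotated exons of a gene, overlaps counted once. It is used for shares and ranks between genes. That length can exceed the length of the transcript made, so these shares and ranks depend on it. "Rose" and "fell" mean a Benjamini-Hochberg adjusted p under 0.05 over all genes in edgeR's quasi-likelihood test of KO-labelled against control libraries. Whole-gene counts did not check the labels fully: Erg averaged 144 ± 18.6 CPM in KO-labelled liver and 356 ± 17.5 CPM in control liver (SD, n = 3 each), but in heart it did not pass (adjusted p = 0.0538), and Fli1 was not lower in any tissue. Reads outside a deleted stretch still count towards the gene, and the labels do not place that stretch, so directions below are those of the labels. Nothing says that each library came from its own animal, so p-values measure the spread between these libraries, which may in part be technical. All 12 endothelial marker genes looked at had counts in each of the 6 groups. By the expression of sex-linked genes 5 libraries were male: number 2 of each liver and lung group and KO-labelled heart 2, while both heart controls were female. In RNA from sorted bulk samples, fewer cells of a type and less RNA per cell cannot be told apart.

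More of these genes rose than fell in KO-labelled liver and heart, and in lung nearly as many fell as rose. In liver 17 rose (43.6%) and 1 fell, where 9.54% of all tested genes rose and 9.87% fell. In lung 5 rose (12.8%) and 4 fell, against 4.35% and 4.11% of all genes. In heart 20 rose (51.3%) and 3 fell, against 10.2% and 9.09% of all genes. The 39 genes were chosen with earlier results of these data known. Counts set beside all genes, here and below, are therefore a description and not an independent test. The median log2 change of the 39 genes was 0.52 in liver, 0.06 in lung and 0.89 in heart, beside medians of 0.02, -0.02 and 0.01 over all genes tested. Among the 21 genes of glycolytic enzymes and carriers, 10 rose and 0 fell in liver, 0 rose and 3 fell in lung, and 13 rose and 1 fell in heart. The counts of 0 are from edgeR; at an unadjusted p under 0.05, 12 rose and 0 fell in liver and 0 rose and 4 fell in lung, and DESeq2 called 11 higher and 0 lower in liver and 0 higher and 3 lower in lung. The lung count of 0 higher did not hold in every fit, since Pfkp passed when only the tissues compared were fitted (log2 0.46, adjusted p = 0.0339) and Gpi1 without KO-labelled lung 1 (log2 0.67, adjusted p = 0.0263), with 2 and 0 lower. Among the 18 genes of hypoxia targets and HIF components, 7 rose and 1 fell in liver, 5 rose and 1 fell in lung, and 7 rose and 2 fell in heart. Egln3 and Ddit4 rose in all 3 tissues. Car9, a carbonic anhydrase of the cell surface, had no count in any KO-labelled lung library. Lung controls 1, 2 and 3 had 5, 0 and 8 counts, so the groups overlapped, and Car9 did not pass (adjusted p = 0.0898). A floor of 3 counts over KO-labelled lung lay 4.13-fold below the 13 counts over the controls. That figure leaves out the error of the 13 and the spread between libraries. With Car9 at that floor the lung median stayed at 0.06.

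**Figure D1:**
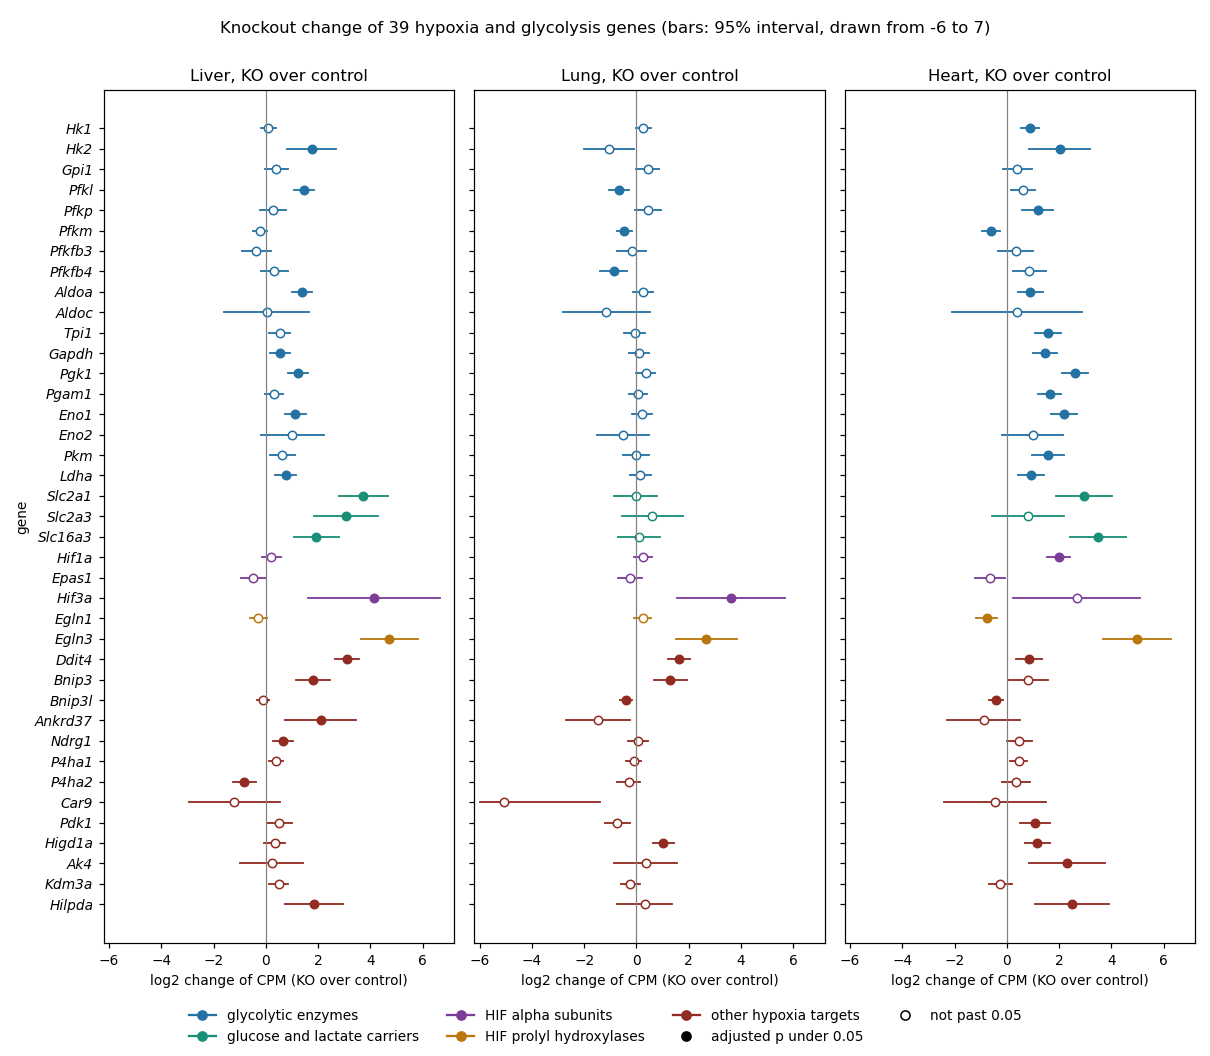
Log2 change of CPM (KO-labelled over control, horizontal axis) of the 39 genes (rows) in liver, lung and heart, with its 95% interval as a bar. Filled points passed an adjusted p of 0.05: 18 genes in liver, 9 in lung and 23 in heart, with Egln3 the highest filled point in each panel except lung, where it is Hif3a.

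The promoters of 5 genes are shown as those of Ddit4 and Egln3, which passed in all 3 comparisons, and of the 3 with the smallest liver p among the genes that passed in 2 (Pfkl with opposite signs in liver and lung). Their windows hold the core letters of the hypoxia response element, the short site that HIF dimers bind, which was a condition for being shown. Each window runs from 250 bases before the RefSeq start of transcription to 50 after it (GRCm38.p6), 5′ to 3′ on the gene's strand, with ACGTG and GCGTG on either strand in capitals. The windows are chr10:59951721-59952020 on the minus strand for Ddit4, chr12:54203825-54204124 on the minus strand for Egln3 and chr4:119108495-119108794 on the plus strand for Slc2a1. That for Pfkl is chr10:78009758-78010057 on the minus strand, and that for Aldoa is chr7:126799129-126799428 on the minus strand. Aldoa has 3 starts listed, and 2 of them have a match. The window shown was picked among these by its number of matches, then by position.
Ddit4: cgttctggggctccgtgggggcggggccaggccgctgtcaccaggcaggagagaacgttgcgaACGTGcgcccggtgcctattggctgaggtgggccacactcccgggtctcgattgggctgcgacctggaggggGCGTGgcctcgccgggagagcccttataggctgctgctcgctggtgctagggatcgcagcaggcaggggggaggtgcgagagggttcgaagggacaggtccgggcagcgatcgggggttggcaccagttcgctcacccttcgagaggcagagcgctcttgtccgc
Egln3: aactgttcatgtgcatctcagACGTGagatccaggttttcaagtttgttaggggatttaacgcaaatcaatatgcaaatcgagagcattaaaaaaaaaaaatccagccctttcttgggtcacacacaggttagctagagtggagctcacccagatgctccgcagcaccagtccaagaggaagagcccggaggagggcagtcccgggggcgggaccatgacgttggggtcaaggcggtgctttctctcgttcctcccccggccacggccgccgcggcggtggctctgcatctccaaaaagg
Slc2a1: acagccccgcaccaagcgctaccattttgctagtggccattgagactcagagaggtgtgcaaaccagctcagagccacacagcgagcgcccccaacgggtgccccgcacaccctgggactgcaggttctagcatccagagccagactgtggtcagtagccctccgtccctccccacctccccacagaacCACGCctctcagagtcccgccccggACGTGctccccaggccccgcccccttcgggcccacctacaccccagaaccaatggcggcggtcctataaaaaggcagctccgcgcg
Pfkl: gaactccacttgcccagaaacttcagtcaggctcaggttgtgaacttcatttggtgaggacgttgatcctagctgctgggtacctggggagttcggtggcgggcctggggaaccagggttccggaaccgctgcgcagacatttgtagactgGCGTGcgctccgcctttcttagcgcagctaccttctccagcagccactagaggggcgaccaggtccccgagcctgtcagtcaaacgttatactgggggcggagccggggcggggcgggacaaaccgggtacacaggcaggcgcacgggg
Aldoa: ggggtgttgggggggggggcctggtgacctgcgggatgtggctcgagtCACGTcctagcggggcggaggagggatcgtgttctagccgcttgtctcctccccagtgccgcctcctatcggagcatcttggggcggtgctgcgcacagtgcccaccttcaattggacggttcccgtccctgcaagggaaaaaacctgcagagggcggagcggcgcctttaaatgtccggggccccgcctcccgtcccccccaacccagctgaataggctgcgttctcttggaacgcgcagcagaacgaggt

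The Slc2a1 window has 2 matches, 36 and 61 bases before the start, and the Ddit4 window has 2, at 115 and 187 bases. The windows of Pfkl, Aldoa and Egln3 have 1 each, at 99, 202 and 229 bases. Of the 39 genes, 35 are in the RefSeq promoter table, and 32 of these (91.4%) have a match, against 12628 of 27025 genes in the table (46.7%) and 43.8% of all its windows of this length. ACGTG alone is in 71.4% of the 35 genes and 21.8% of all genes, and GCGTG alone in 68.6% and 35.2%. Using only the bases before the start, the shares with either are 91.4% of the 35 and 41.5% of all genes. A match is a description of the letters and not a bound site. The 39 genes were listed as glycolysis and hypoxia response genes, so a high share could be foreseen. The comparison takes all genes of the promoter table, whether or not they were tested here. The shares are therefore a description and no test of enrichment.

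Among the oxygen sensors, Egln3 had the highest log2 change of the 39 genes in liver and heart. Egln3 (chromosome 12, 54178981 to 54203860, minus strand, GRCm38) encodes PHD3, a HIF prolyl hydroxylase that is itself a HIF target. It had 37.7, 20.3 and 69.7 CPM in KO-labelled liver, against 1.4, 1.43 and 2 CPM in control liver, and 188 and 92.7 CPM in KO-labelled heart, against 3.83 and 5.15 CPM in control heart. KO-labelled lung had 2.57, 4.48 and 2.12 CPM, against 0.678, 0.194 and 0.53 CPM in control lung. In each tissue every KO-labelled library lay above every control. The log2 changes were 4.72 in liver (SE 0.502, adjusted p = 2.3e-05), 2.68 in lung (SE 0.535, adjusted p = 0.00725) and 4.96 in heart (SE 0.603, adjusted p = 0.000153). Levels in KO-labelled lung stayed below those of KO-labelled liver and heart. They lay above those of control liver and overlapped those of control heart.

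Egln1 (chromosome 8, 124908587 to 124949324, minus strand), the main HIF prolyl hydroxylase PHD2, moved otherwise. Heart had 136 and 128 CPM in KO-labelled libraries and 173 and 274 CPM in controls, a fall of log2 -0.76 (SE 0.187, adjusted p = 0.0121). The 2 heart controls differed more from each other than the lower one did from the KO-labelled libraries, and without control heart 2 the change was -0.39 (adjusted p = 0.181). The call also ended without KO-labelled heart 1 or 2 (adjusted p = 0.061 and 0.0629). Liver and lung did not pass, with means of 70.5 ± 10.7 and 86.6 ± 1.74 CPM in KO-labelled and control liver, and 74.9 ± 8.27 and 63.6 ± 4.34 CPM in KO-labelled and control lung (SD, n = 3 each). Per length, Egln3 made up 42.5% ± 16.6 of the summed RPKM of Egln1 and Egln3 in KO-labelled liver and 2.45% ± 0.55 in control liver. In heart these shares were 57.3% ± 11.1 and 2.69% ± 0.30 (n = 2 each), and in lung 5.10% ± 1.43 and 1.0% ± 0.58.

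Of the HIF alpha subunits, Hif1a (chromosome 12, 73901375 to 73947530, plus strand) rose in heart. KO-labelled heart had 401 and 211 CPM and control heart 77.4 and 78.2 CPM. Both KO-labelled libraries stood well above the controls and apart from each other, with a log2 change of 1.97 (SE 0.209, adjusted p = 6.23e-05). Liver had 122, 110 and 109 CPM in KO-labelled libraries against 104, 92 and 99.1 CPM in controls, and lung had 76.5, 74.9 and 74.5 CPM against 68.2, 61.5 and 59.8 CPM. These groups did not overlap, but the changes of 0.21 and 0.25 did not pass (adjusted p = 0.41 and 0.402). An antisense gene and a second annotated gene, on the same strand, overlap Hif1a. Reads of the antisense gene cannot be told apart from those of Hif1a unless counting used strand. Strand does not separate reads of the second gene.

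Epas1 (chromosome 17, 86753700 to 86833410, plus strand) had by far the highest RPKM of the 3 subunits in all 6 groups and passed in no tissue. It averaged 9357 ± 1731 CPM in KO-labelled lung and 10996 ± 1603 CPM in control lung (SD, n = 3 each), with overlapping libraries. Liver had 1161 ± 72.2 CPM in KO-labelled and 1619 ± 135 CPM in control libraries (log2 -0.48, adjusted p = 0.142), and heart 1841 ± 519 and 2901 ± 600 CPM (log2 -0.66, adjusted p = 0.101, n = 2 each). In liver and heart no KO-labelled library reached a control, without passing the test. Hif1a was 14.3% ± 8.6 of the summed RPKM of the 3 subunits in KO-labelled heart and 2.53% ± 0.49 in control heart. In liver it was 8.50% ± 0.50 and 5.45% ± 0.15, and in lung 0.771% ± 0.12 and 0.554% ± 0.13.

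Hif3a (chromosome 7, 17031507 to 17062427, minus strand) encodes another alpha subunit, some forms of which restrain the others. KO-labelled lung had 15.3, 4.94 and 16.4 CPM and control lung 0.291, 1.03 and 1.7 CPM, all KO-labelled above all control, with log2 3.61 (SE 0.963, adjusted p = 0.0331). KO-labelled liver had 0.129, 1.07 and 4.82 CPM and control liver 0.0264, 0.204 and 0.122 CPM. The liver groups overlapped, since KO-labelled liver 1 lay below control liver 2, and the log2 change of 4.12 (adjusted p = 0.0245) fell to 2.41 (adjusted p = 0.161) without KO-labelled liver 3. Heart had 11.5 and 10 CPM in KO-labelled libraries and 0.667 and 2.72 CPM in controls, which did not pass (log2 2.67, adjusted p = 0.116). The liver call also ended without any liver control (adjusted p 0.0522 to 0.0905), and the lung call without KO-labelled lung 1 or 3 or any lung control (0.0669 to 0.118). Hif3a stayed a small part of the summed RPKM of the 3 subunits, highest in heart at 0.431% ± 0.12 in KO-labelled and 0.0442% ± 0.032 in control libraries.

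**Figure D2:**
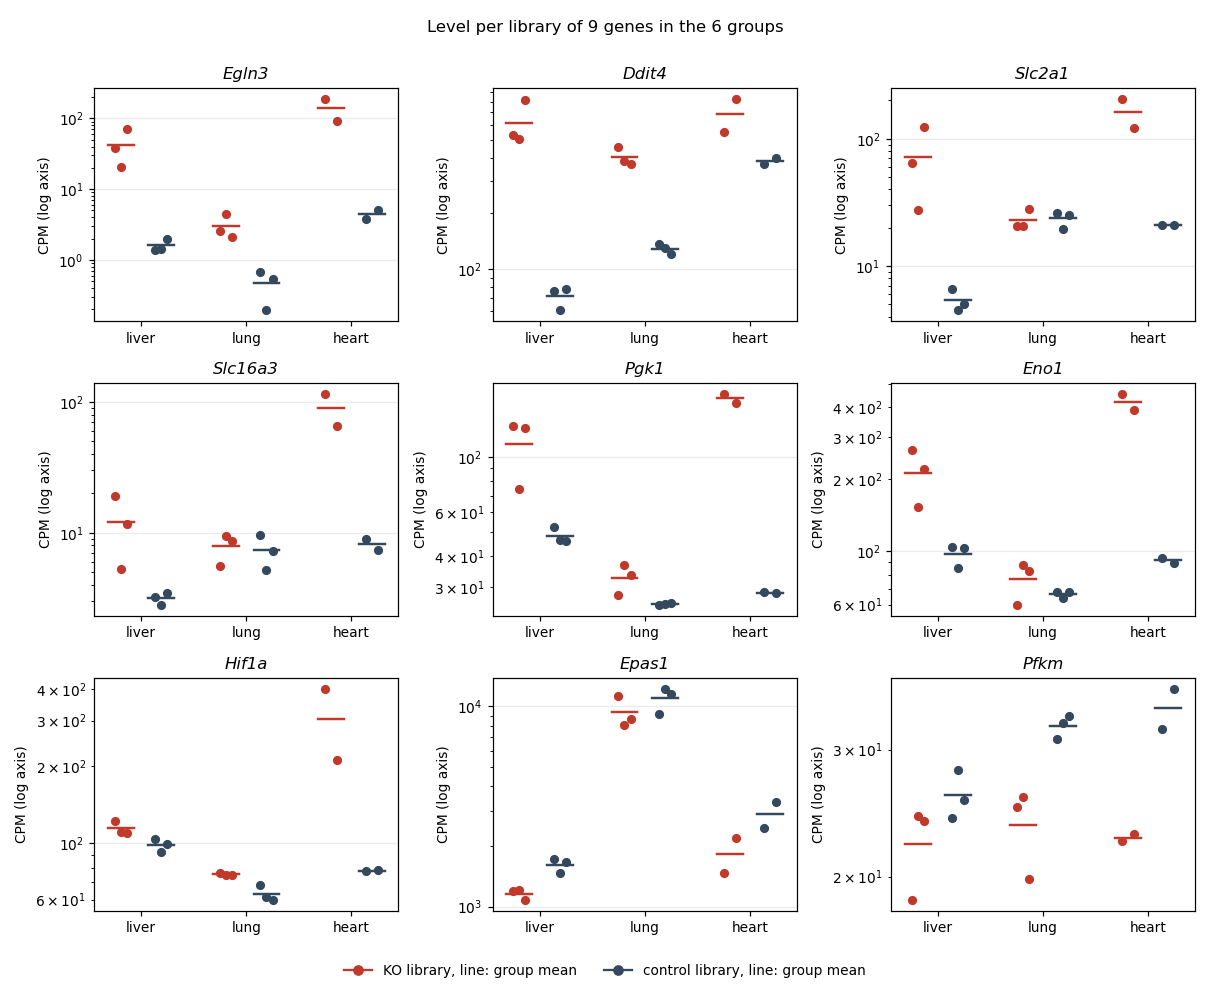
CPM (vertical, log axis) of 9 genes in each library, KO-labelled left of control within liver, lung and heart, with group means as lines. Egln3 and Ddit4 were higher in KO-labelled libraries of every tissue, Hif1a stood out in KO-labelled heart at 401 and 211 CPM, and Epas1 was highest in lung.

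Of the 3 carriers that bring in glucose and let out lactate, 3 rose in liver and 2 in heart, and in lung their changes did not pass. Slc2a1 (chromosome 4, 119108711 to 119137983, plus strand) encodes the glucose transporter GLUT1. It had 64.7, 27.6 and 123 CPM in KO-labelled liver, against 6.67, 4.49 and 5.01 CPM in control liver, and 205 and 121 CPM in KO-labelled heart, against 20.9 CPM in both heart controls. No KO-labelled library of these tissues came near a control, and the log2 changes were 3.73 (SE 0.428, adjusted p = 4.31e-05) and 2.97 (SE 0.498, adjusted p = 0.00122). In lung 20.6, 20.7 and 28.1 CPM in KO-labelled libraries overlapped 26.3, 19.7 and 25.1 CPM in controls (log2 -0.04, 95% interval -0.85 to 0.78). Antisense genes overlap Slc2a1.

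Slc16a3 (chromosome 11, 120948480 to 120960868, plus strand) encodes MCT4, a lactate exporter. KO-labelled heart had 116 and 65.7 CPM and control heart 8.91 and 7.4 CPM (log2 3.47, SE 0.501, adjusted p = 0.000484). KO-labelled liver had 19.2, 5.25 and 11.6 CPM and control liver 3.22, 2.79 and 3.43 CPM (log2 1.93, SE 0.398, adjusted p = 0.00363). In both tissues all KO-labelled libraries lay above the controls, the second liver library by the least. Lung averaged 7.89 ± 2.05 CPM in KO-labelled and 7.37 ± 2.27 CPM in control libraries (SD, n = 3 each). Slc2a3, which encodes the glucose transporter GLUT3, had 18.1, 9.45 and 71.4 CPM in KO-labelled liver and 3.66, 3.47 and 4.65 CPM in control liver. Its log2 change there was 3.07 (adjusted p = 0.0017) and 1.81 without KO-labelled liver 3, the library that held most of it. Heart did not pass for Slc2a3, with 20.1 and 11.2 CPM in KO-labelled and 10.5 and 7.51 CPM in control libraries.

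The glycolytic enzymes as a group took more of the counts in KO-labelled liver and heart. The sums below are of CPM and not per length, so long and abundant genes weigh most. Their 18 genes summed to 4137, 2560 and 3404 CPM in KO-labelled liver, against 2246, 1860 and 1961 CPM in control liver, and to 4836 and 4281 CPM in KO-labelled heart, against 1926 and 2141 CPM in control heart. All KO-labelled libraries of these tissues stood above their controls. KO-labelled lung summed to 1412, 1808 and 1774 CPM, and control lung to 1540, 1494 and 1533 CPM, so that these groups overlapped. The 3 carriers summed to between 42.3 and 206 CPM in KO-labelled liver and 10.8 and 13.5 CPM in control liver. In heart the range was 198 to 341 CPM in KO-labelled and 35.8 to 40.3 CPM in control libraries.

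**Figure D3:**
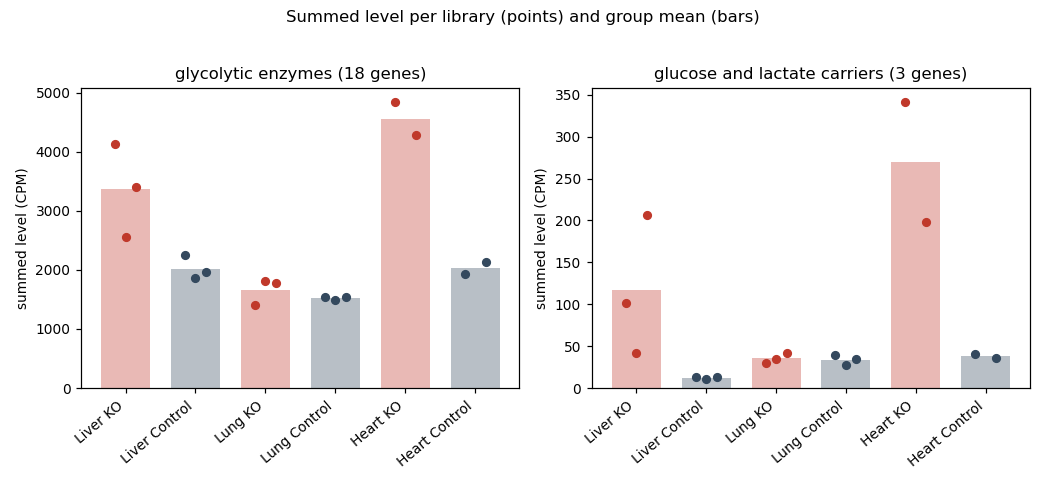
Summed CPM (vertical) of the 18 glycolytic enzyme genes and of the 3 carrier genes in each library (points) with group means (bars), KO-labelled left of control. The KO-labelled heart libraries reach 4836 and 4281 CPM over the enzyme genes against at most 2141 CPM in control heart, and the lung groups of the enzyme genes overlap.

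At the entry of the pathway, hexokinases trap glucose as its phosphate. Hk2, the inducible form and a HIF target, had 18.4, 14.7 and 30.3 CPM in KO-labelled liver, against 7.67, 4.7 and 6.32 CPM in control liver (log2 1.76, SE 0.436, adjusted p = 0.0114), with no overlap. In heart it had 14.8 and 7.99 CPM in KO-labelled and 3.89 and 1.75 CPM in control libraries (log2 2.02, adjusted p = 0.0198). Hk2 was lower in all KO-labelled lung libraries, at 0.679, 1.5 and 2.56 CPM against 3.68, 2.66 and 3.37 CPM in controls, and did not pass there (log2 -1.04, adjusted p = 0.185). The liver call for Hk2 ended without control liver 2 (adjusted p = 0.0522), and its heart call without KO-labelled heart 1 (0.151) or control heart 2 (0.166). Hk1, the constitutive form, rose in heart to 313 and 264 CPM in KO-labelled libraries, against 154 and 159 CPM in controls (log2 0.88, SE 0.165, adjusted p = 0.00256), and in liver did not pass (log2 0.08). Per length Hk2 was 16.4% ± 6.07 of both hexokinases in KO-labelled liver and 5.71% ± 0.64 in control liver, and Hk1 remained the more abundant in all 6 groups. Gpi1, the next enzyme, passed in no tissue.

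Phosphofructokinase, the committed step, has 3 genes that moved apart. Pfkl, the liver-type form (chromosome 10, 77986947 to 78010083, minus strand), had 346, 231 and 254 CPM in KO-labelled liver, against 116, 88.1 and 95.1 CPM in control liver, with no overlap (log2 1.47, SE 0.177, adjusted p = 6.48e-05). In lung it was lower, at 44.6, 56.4 and 46.1 CPM in KO-labelled libraries against 83.5, 70.6 and 77.9 CPM in controls (log2 -0.66, SE 0.175, adjusted p = 0.0331), again with no overlap. Pfkp, the platelet-type form, rose in heart to 329 and 238 CPM in KO-labelled libraries, against 148 and 103 CPM in controls (log2 1.17, adjusted p = 0.0107). Pfkm, the muscle-type form, had 22.4 and 22.9 CPM in KO-labelled heart and 32 and 36.4 CPM in control heart (log2 -0.60, adjusted p = 0.0187), and 25, 25.8 and 19.9 CPM in KO-labelled lung against 31.1, 32.6 and 33.4 CPM in control lung (log2 -0.46, adjusted p = 0.0436). Per length, Pfkl was 79.8% ± 4.1 of the 3 forms in KO-labelled liver and 58.1% ± 2.5 in control liver. Pfkp was 41.8% ± 1.1 in KO-labelled heart and 27.3% ± 7.2 in control heart, and 29.6% ± 0.56 in KO-labelled lung and 17.3% ± 1.0 in control lung. These shares depend on the exon lengths used, 13401 bases for Pfkp, 6675 for Pfkl and 3340 for Pfkm. In control heart mean CPM was higher for Pfkp (126) than for Pfkl (99.2), although the Pfkp share was lower (27.3% against 43.1%).

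Single libraries decided several of these calls. That for Pfkl in lung ended without KO-labelled lung 1 or 3 or any lung control (adjusted p up to 0.107). The lung call for Pfkm ended without any of 12 libraries, which were every liver and every heart control, both KO-labelled heart libraries, KO-labelled lung 1 or 3 and every lung control (adjusted p up to 0.161). Its heart call ended without KO-labelled heart 1 or 2 or control heart 2 (up to 0.136). The heart call for Pfkp ended without KO-labelled heart 1 (0.0943) or control heart 2 (0.114). Senp1 overlaps Pfkm on the other strand, and Pitrm1 overlaps Pfkp. Pfkfb3 and Pfkfb4 encode bifunctional enzymes that make or break down the activator of phosphofructokinase, and Pfkfb3 is well known in endothelial sprouting. Pfkfb3 passed in no tissue, with group means between 65.2 and 117 CPM. Pfkfb4 fell in lung, with 3.42, 4.76 and 3.5 CPM in KO-labelled and 7.58, 7.84 and 6 CPM in control libraries (log2 -0.88, adjusted p = 0.0349). The Pfkfb4 call ended without KO-labelled lung 1 or 3 or any lung control (up to 0.116).

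The enzymes that split the sugar and harvest its energy rose together in heart and in part in liver. Pgk1 (chromosome X, 106187100 to 106203699, plus strand), phosphoglycerate kinase, had 180 and 165 CPM in KO-labelled heart, against 28.6 and 28.4 CPM in control heart, the highest log2 change in any tissue among the 18 glycolytic enzyme genes listed, at 2.60 (SE 0.226, adjusted p = 2.23e-05). KO-labelled liver had 133, 74.4 and 131 CPM of Pgk1 and control liver 52.2, 46.5 and 46.1 CPM (log2 1.22, SE 0.176, adjusted p = 0.000277). In lung the KO-labelled 27.9, 36.6 and 33.5 CPM lay just above the control 25.3, 25.7 and 25.9 CPM and did not pass (log2 0.35, adjusted p = 0.26). Eno1 (chromosome 4, 150236721 to 150248879, plus strand), enolase, had 455 and 388 CPM in KO-labelled heart and 93.7 and 89.8 CPM in control heart (log2 2.20, SE 0.23, adjusted p = 5.97e-05). KO-labelled liver had 266, 154 and 220 CPM of Eno1, against 105, 85.2 and 103 CPM in control liver (log2 1.13, SE 0.182, adjusted p = 0.000672). For both genes all KO-labelled libraries of liver and heart lay above the controls, and KO-labelled liver 2 was the lowest of its group.

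Aldoa, aldolase A (chromosome 7, 126795234 to 126800751, minus strand), had 651, 429 and 583 CPM in KO-labelled liver, against 239, 188 and 212 CPM in control liver (log2 1.38, SE 0.186, adjusted p = 0.000169). In heart it had 546 and 592 CPM in KO-labelled and 275 and 339 CPM in control libraries (log2 0.89, adjusted p = 0.0144). Gapdh, often used as a housekeeping reference, had 711 and 681 CPM in KO-labelled heart and 222 and 284 CPM in control heart (log2 1.46, adjusted p = 0.000531). Its liver values of 520, 325 and 425 CPM in KO-labelled libraries stood just above 310, 273 and 294 CPM in controls (log2 0.53, adjusted p = 0.0431). Ldha, which turns pyruvate into lactate, had 684, 407 and 413 CPM in KO-labelled liver and 335, 270 and 288 CPM in control liver (log2 0.75, adjusted p = 0.0109), and 516 and 553 CPM in KO-labelled heart against 269 and 294 CPM in control heart (log2 0.92, adjusted p = 0.0123). None of these groups overlapped.

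The Gapdh call in liver ended without any liver control, KO-labelled liver 1 or 3, KO-labelled lung 3, or control lung 1 or 3 (adjusted p up to 0.174). The heart call for Aldoa ended without KO-labelled heart 2 (0.0633) or control heart 1 (0.12), and that for Ldha without KO-labelled heart 2 or either control (up to 0.0829). Without KO-labelled liver 1 the log2 change of Ldha in liver was 0.46, and with female libraries only its call ended (adjusted p = 0.0571). Tpi1, Pgam1 and Pkm, for triose phosphate isomerase, phosphoglycerate mutase and pyruvate kinase, rose in heart and did not pass in liver or lung. Tpi1 had 174 and 160 CPM in KO-labelled heart and 50.9 and 62.2 CPM in control heart (log2 1.56, adjusted p = 0.000501). Pgam1 had 41.5 and 40.4 CPM against 12.4 and 13.9 CPM (log2 1.64, adjusted p = 0.000187), and Pkm 886 and 679 CPM against 250 and 280 CPM (log2 1.56, adjusted p = 0.00189). In liver their changes were 0.52, 0.31 and 0.63 (adjusted p = 0.0608, 0.205 and 0.0671). The brain-type forms Aldoc and Eno2 stayed under 4 CPM in every library and passed in no tissue. Glycolytic enzyme genes have many processed pseudogenes, and the treatment of reads matching several places in the authors' counting is not stated.

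Among other hypoxia targets, Ddit4 (chromosome 10, 59949669 to 59951834, minus strand), which encodes the mTORC1 inhibitor REDD1, rose in all tissues. It had 529, 505 and 815 CPM in KO-labelled liver, against 76.5, 60.2 and 78 CPM in control liver, and 454, 382 and 370 CPM in KO-labelled lung, against 138, 130 and 121 CPM in control lung. Heart had 551 and 827 CPM in KO-labelled and 369 and 398 CPM in control libraries. No groups overlapped, and all 8 KO-labelled libraries lay between 370 and 827 CPM. The log2 changes were 3.11 in liver (SE 0.21, adjusted p = 6.09e-07), 1.64 in lung (SE 0.198, adjusted p = 0.00029) and 0.85 in heart (SE 0.238, adjusted p = 0.0241). In heart the change was 0.52 without KO-labelled heart 2 (adjusted p = 0.203), and the call also ended without either control (up to 0.133).

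Genes of mitochondrial turnover and fuel use followed several patterns. Bnip3, a mitophagy receptor, had 38.3, 22.7 and 55.2 CPM in KO-labelled liver and 8.96, 10.6 and 13.7 CPM in control liver (log2 1.81, adjusted p = 0.000843), and 23.7, 33.3 and 41.2 CPM in KO-labelled lung against 11.7, 14 and 14.2 CPM in control lung (log2 1.29, adjusted p = 0.0151). Its relative Bnip3l went the other way, with 123, 109 and 114 CPM in KO-labelled lung and 145, 155 and 154 CPM in control lung (log2 -0.39, adjusted p = 0.0367), and 90.8 and 111 CPM in KO-labelled heart against 120 and 148 CPM in control heart (log2 -0.41, adjusted p = 0.0399). Higd1a, a small protein of the inner mitochondrial membrane, had 34.2, 48.9 and 34.2 CPM in KO-labelled lung against 22.6, 16 and 18.7 CPM in control lung (log2 1.03, adjusted p = 0.00331), and 33.1 and 30 CPM in KO-labelled heart against 12.4 and 15.6 CPM in control heart (log2 1.17, adjusted p = 0.00304). None of these groups overlapped. Pdk1, which encodes a kinase that turns off pyruvate dehydrogenase, rose in heart. KO-labelled heart had 79.5 and 58.4 CPM of Pdk1 and control heart 28.6 and 36.8 CPM (log2 1.08, adjusted p = 0.0147). In KO-labelled lung Pdk1 had 24.9, 19.5 and 15 CPM against 35.9, 30.1 and 33 CPM in controls and did not pass (log2 -0.74, adjusted p = 0.0579).

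Ak4, a mitochondrial adenylate kinase, rose in heart to 12.7 and 8.37 CPM in KO-labelled libraries, against 2.5 and 1.8 CPM in controls (log2 2.29, adjusted p = 0.0306). The lung call for Bnip3 ended without KO-labelled lung 3 or any lung control (adjusted p up to 0.0658), and that for Bnip3l without KO-labelled lung 2 or 3 or any lung control (up to 0.108). The heart call for Bnip3l ended without any liver control, control lung 2 or 3, KO-labelled heart 1 or control heart 2, and its change was -0.25 and -0.26 without these last 2 (adjusted p = 0.315 and 0.321). With female libraries only the lung call for Higd1a ended (0.0921). Pdk1 in heart did not pass without KO-labelled heart 1 (0.113) or control heart 1 (0.115), nor did Ak4 without KO-labelled heart 1 or either control (up to 0.179).

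Hilpda, an inhibitor of lipid droplet breakdown, showed how much 1 library can weigh. KO-labelled liver had 32.5, 10.9 and 93.5 CPM and control liver 15, 10.9 and 12.7 CPM, so that the groups overlapped. Its log2 change of 1.83 (adjusted p = 0.0238) became 0.75 (adjusted p = 0.173) without KO-labelled liver 3, and the call ended without any liver control as well (up to 0.0823). Heart had 37.4 and 21.3 CPM in KO-labelled and 4.7 and 5.68 CPM in control libraries (log2 2.50, adjusted p = 0.0181), a call that ended without KO-labelled heart 1 or either control (up to 0.118). Lung had far more Hilpda, between 269 and 345 CPM in KO-labelled and 195 and 278 CPM in control libraries, which overlapped. KO-labelled liver 3 was also the highest liver library for Slc2a1, Slc2a3, Egln3, Hif3a, Ddit4 and Bnip3.

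Ankrd37, an ankyrin repeat protein gene, had 1.64, 0.406 and 2.23 CPM in KO-labelled liver and 0.343, 0.409 and 0.243 CPM in control liver, overlapping, with log2 2.10 (adjusted p = 0.0316). That call ended without any liver control or KO-labelled liver 1 or 3 (up to 0.12), and 2 other genes overlap Ankrd37. In lung all KO-labelled libraries were lower, at 1.29, 0.307 and 1.35 CPM against 2.4, 3.02 and 2.9 CPM in controls. Heart had 8.17 and 4.58 CPM in KO-labelled and 7.69 and 16 CPM in control libraries, which overlapped. Ankrd37 passed in neither lung nor heart. Ndrg1, a stress-responsive gene, had 571, 532 and 412 CPM in KO-labelled liver and 329, 292 and 340 CPM in control liver (log2 0.66, adjusted p = 0.0219), a call lost without control liver 2 or KO-labelled liver 1 or 2 (up to 0.0755). P4ha1 and P4ha2 encode alpha subunits of the enzyme that hydroxylates collagen. P4ha2 fell in liver, with 22.8, 19.4 and 11 CPM in KO-labelled and 32.2, 32.4 and 29.6 CPM in control libraries (log2 -0.83, adjusted p = 0.0115), and no library of one group reached the other, but the call ended with only liver fitted (adjusted p = 0.0609) and with female libraries only (0.0884). P4ha1 did not pass in liver (log2 0.39, adjusted p = 0.0509), so the share of P4ha2 in the summed RPKM of both was 6.78% ± 1.6 in KO-labelled and 14.8% ± 2.0 in control liver. Kdm3a, a histone demethylase, passed in no tissue.

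**Figure D4:**
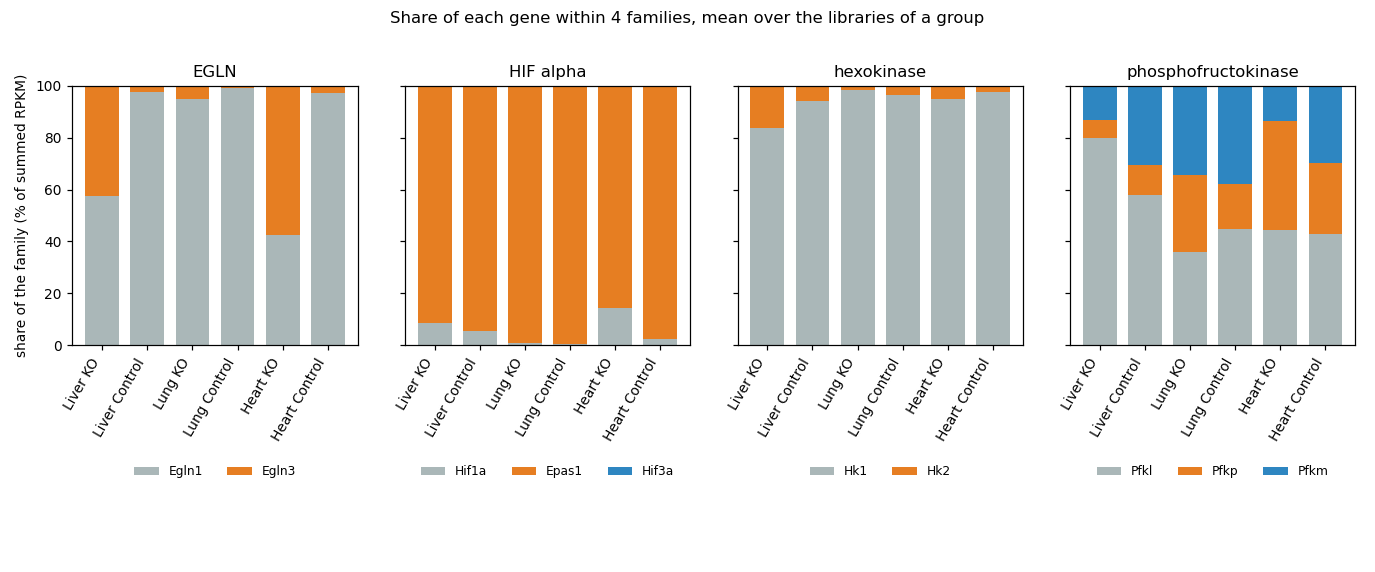
Mean share of each gene (vertical, percent of the family's summed RPKM) in 4 families, with KO-labelled bars left of control for liver, lung and heart. Egln3 makes up 42.5% and 57.3% of the EGLN sum in KO-labelled liver and heart against 2.45% and 2.69% in their controls, and Epas1 is the bulk of the HIF alpha sum in all 6 groups.

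Whether the knockout change itself differed between tissues was tested as an interaction, the difference of 2 log2 changes. Lung differed from liver for 8 of the 39 genes, where 6.20% of all genes did, and in all 8 the lung change was the lower. The differences were -3.77 for Slc2a1 (SE 0.562, adjusted p = 0.0014), -2.80 for Hk2, -2.13 for Pfkl (SE 0.249, adjusted p = 0.00026) and -1.47 for Ddit4 (adjusted p = 0.00593). With female libraries only, those of Hk2 and Ddit4 did not pass. The other 4 genes were Aldoa, Eno1, Ankrd37 and Pdk1, each of which did not pass without at least 1 single library. Heart differed from liver for 8 genes, where 8.32% of all genes did. Of these, 7 changed more upward in heart, among them Hif1a by 1.76 (SE 0.263, adjusted p = 0.00133), Pgk1 by 1.37 (adjusted p = 0.00822) and Pgam1 by 1.32 (adjusted p = 0.00692), while Ddit4 changed less, by -2.26 (SE 0.31, adjusted p = 0.000832). Heart differed from lung for 14 genes, where 6.40% of all genes did, and 13 of these changed more upward in heart. They included Slc16a3 by 3.38 (SE 0.612, adjusted p = 0.00646), Pgk1 by 2.25 (SE 0.279, adjusted p = 0.000696) and Eno1 by 1.99 (adjusted p = 0.00184), and the exception was Egln1 at -1.0 (adjusted p = 0.0266), which was -0.63 without control heart 2 and did not pass without that library, control lung 1 or either KO-labelled heart library (up to 0.138). For Egln3 no pair of tissues passed, with differences of -2.04 for lung minus liver (adjusted p = 0.123), 0.24 for heart minus liver (0.89) and 2.28 for heart minus lung (0.0979).

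Differences between control tissues among these genes were read against those of all genes. Between control lung and control liver 22 of the 39 genes passed, where 47.0% of all genes did, and between control heart and control liver 19 did, where 47.6% of all genes did. Between control heart and control lung 16 passed, where 29.5% of all genes did. Per length Epas1 was the most abundant of the 39 genes in each control tissue, at 1967 RPKM in lung, 519 RPKM in heart and 290 RPKM in liver. Its log2 difference in CPM was 2.76 for control lung over control liver (adjusted p = 3.94e-07). Slc2a1 was higher in control lung and heart than in control liver, by 2.13 and 1.95 on the log2 scale of CPM (adjusted p = 0.000642 and 0.00217), and so was Ddit4, by 0.85 and 2.42 (adjusted p = 0.00255 and 1.18e-06). Ndrg1 was lower in control lung than in control liver (log2 -2.89, adjusted p = 5.34e-08), as were Ldha (-1.16), Pkm (-1.13) and Pgk1 (-0.91). Control heart had less Hilpda than control lung (log2 -5.53) and more Egln3 (3.24), Egln1 (1.81) and Ddit4 (1.57). Next after Epas1 by RPKM stood Ldha at 89.9 in control liver, Hilpda at 218 in control lung and Ddit4 at 219 in control heart.

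Other genes of these pathways changed in part. Of all genes tested, 9.54% rose and 9.87% fell in liver, 4.35% and 4.11% in lung, and 10.2% and 9.09% in heart. Counts in the lists below are to be read beside these shares. Some lay near or below them, such as partners and regulators of HIF in liver (5.88% rose). These lists too were chosen with earlier results of these data known. Of 36 further HIF targets tested, 13 rose and 3 fell in liver, 5 rose and 4 fell in lung, and 15 rose and 1 fell in heart, with medians of log2 0.61, -0.16 and 0.62. Angptl4, a lipoprotein lipase inhibitor, rose in liver by log2 4.48 (adjusted p = 0.000843), and Loxl2, a collagen crosslinking enzyme, by 1.95 in liver and 1.81 in heart (adjusted p = 0.000423 and 0.00419). The MYC antagonist gene Mxi1 rose in liver (log2 1.0, adjusted p = 0.000512) and fell in heart (log2 -1.08, adjusted p = 0.00178). In lung Plod1, Insig2 and Adm rose, by 0.94, 0.46 and 1.17. Of 17 partners and regulators of HIF, 1 rose in liver, and 1 rose and 1 fell in heart.

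Other isozymes and neighbouring pathways had members that rose and members that fell. Ldhb, the lactate dehydrogenase subunit that favours lactate use, fell in all 3 tissues, to 18 ± 5.51 CPM in KO-labelled liver against 73.6 ± 11.9 CPM in control liver (log2 -2.03, adjusted p = 0.000155), by log2 -1.04 in lung (adjusted p = 0.03) and by log2 -1.20 in heart (adjusted p = 0.0209). The lung call for Ldhb ended without KO-labelled lung 1 or 3 or any lung control (up to 0.109), and the heart call without KO-labelled heart 1 or either control (up to 0.203). Of 16 other isozymes of glycolysis, 2 fell in liver, 3 fell in lung, and 4 rose and 1 fell in heart, among them the leukocyte-enriched hexokinase Hk3 (log2 3.26, adjusted p = 0.000681). Among 13 other carriers tested, the inositol carrier gene Slc2a13 fell in liver, lung and heart by log2 -1.55, -0.74 and -1.56 (adjusted p = 4.58e-05, 0.0188 and 0.000544), in lung not without KO-labelled lung 2 or 3 or control lung 1 or 3 (up to 0.0832). Of 16 citric acid cycle genes, 1 rose in liver, and 4 rose and 1 fell in heart. Mdh2, the mitochondrial malate dehydrogenase, rose in liver and heart, by 0.66 in both (adjusted p = 0.000341 and 0.00206). Pdp2, a phosphatase that keeps pyruvate dehydrogenase active, fell in heart by log2 -1.29 (adjusted p = 0.00114), and in liver and lung by -0.64 and -0.68 (adjusted p = 0.0174 and 0.0248), calls lost without control liver 1 or 2 or KO-labelled liver 1 (up to 0.0723) and without KO-labelled lung 2 or 3 or control lung 1 or 3 (up to 0.113). Pgd of the pentose phosphate pathway rose in heart by log2 0.88 (adjusted p = 0.00173). Txnip, which curbs glucose uptake, averaged 951 ± 74.5 CPM in KO-labelled and 1890 ± 235 CPM in control liver (log2 -0.99, adjusted p = 0.00187). In heart Txnip fell by log2 -0.75 (adjusted p = 0.0334), but by -0.48 and without passing when KO-labelled heart 1 was left out, and it did not pass without control heart 2 or control lung 3 either (up to 0.268). Of 24 targets of ATF4, the factor of amino acid stress that also drives Ddit4, 5 rose and 4 fell in liver, 3 rose and 1 fell in lung, and 9 rose and 2 fell in heart, among them Psat1, of serine synthesis, by log2 2.12, 1.41 and 2.67 (adjusted p = 0.000982, 0.0197 and 0.000872). Its lung call ended without KO-labelled lung 2 or control lung 2 or 3 (up to 0.0883).

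Genes of other cells and states were counted in the same comparisons, to be read beside the shares of all genes given above. In heart 11 of 15 lung epithelium genes rose, and their summed level was 111 to 171 CPM in KO-labelled and 5.72 to 8.42 CPM in control libraries, with Scgb3a2 and Nkx2-1 at 0 in the controls. Of 18 leukocyte genes tested there, 6 rose, with sums over the list of 20 of 250 to 421 CPM in KO-labelled and 32.6 to 73.7 CPM in control libraries, although CD45-positive cells had been sorted out. Of 16 cardiomyocyte genes 6 fell in heart, with sums of 163 to 189 CPM in KO-labelled and 230 to 361 CPM in control libraries. Endothelial genes fell in all tissues, 6 of 12 in liver, 5 in lung (1 rose) and 7 in heart, and in heart their sum was 10846 to 12733 CPM in KO-labelled and 18208 to 18977 CPM in control libraries. In lung 9 of 15 lung epithelium genes fell, to sums of 417 to 654 CPM in KO-labelled against 2224 to 3461 CPM in control libraries. Lung leukocyte sums were 121 to 260 CPM in KO-labelled and 512 to 579 CPM in control libraries, with 1 of 18 genes lower by the test. Lung cardiomyocyte sums were 26.2 to 163 CPM in KO-labelled and 12.7 to 18.9 CPM in control libraries, and the 1 gene that passed was Tnnt2 (log2 6.20, adjusted p = 0.000901), which was chosen after its values were seen. In liver 4 of 17 hepatocyte genes fell, with sums of 757 to 1163 CPM in KO-labelled and 940 to 3194 CPM in control libraries. Platelet genes rose in liver (3 of 8), lung (3) and heart (2), and sums in liver were 179 to 262 CPM in KO-labelled and 35.5 to 47.7 CPM in control libraries. Summed erythrocyte genes reached 73.8 to 457 CPM in KO-labelled lung and 30.6 to 41.7 CPM in control lung. Of 16 fibroblast and mural genes 1 rose and 1 fell in liver, and 1 rose in lung. In heart 0 passed, but their sums were 2171 to 2532 CPM in KO-labelled and 1784 to 1895 CPM in control libraries. Of 18 proliferation genes 3 rose in heart (median log2 1.36), 1 fell in liver and 1 fell in lung. Of 16 immediate early and dissociation genes 2 rose in liver, and the call for 1 of these, Ier3, ended in 13 of the fits without 1 library. The log2 change was above 0 for all 16 in liver (median 0.98). It was above 0 for 7 in lung (median -0.03) and 2 in heart (median -0.51). The part of any of these in the changes of the 39 genes was not tested.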

How the data were processed

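RNA from 16 libraries of sorted mouse endothelial cells at day 10 after tamoxifen was analysed from 1 deposited table of raw counts per gene, which the authors made after FastQC 0.11.5 and alignment with STAR 2.7.6a to GRCm38, per the submitters' processing notes. Which program, annotation and strand setting were used for counting is not stated in the sources. The labels' protocols name 2 polyA kits, 1 of them stranded, without saying which library used which. Groups came from the labels.

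All 16 libraries entered 1 edgeR 4.0.16 quasi-likelihood fit (R 4.3.3, limma 3.58.1) with 6 groups, TMM scaling and filterByExpr (minimum count 10, minimum total 15), which kept 19646 of 52636 genes. P-values were adjusted by Benjamini-Hochberg over all of them at 0.05. CPM uses the TMM-scaled library size and RPKM the length of all GENCODE exons of a gene, overlaps counted once. The procedure was tested on simulated data. Precision is limited by 2 or 3 libraries a group, at 30226340 to 41449054 counts each.

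The 39 genes and the other lists were chosen with earlier results of these data known. Values per library are given for those of the 39 genes that passed in a knockout comparison, and from every other list at most 4 genes a tissue with the smallest adjusted p are named, except 1 that is not reported here. Promoters are shown for the 5 genes that passed in the most knockout comparisons and hold the motif, with ties ordered by the liver p. Alternatives were other size factors (RLE), no filter on low counts, DESeq2 1.42.0, fits of only the tissues compared, a replicate block, female libraries only and leaving out each library.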

Additional observations from a re-analysis of the deposited data

Results flagged for a closer look

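The values here are differences between 2 tissues in the log2 change of KO-labelled over control, each listed because the test of that difference passed (edgeR quasi-likelihood, Benjamini-Hochberg over all genes).

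For lung minus liver, the differences were -3.77 for Slc2a1 (adjusted p = 0.0014), -3.58 for Ankrd37 (0.0226), -2.80 for Hk2 (0.0167), -2.13 for Pfkl (0.00026) and -1.47 for Ddit4 (0.00593). They were -1.25 for Pdk1 (0.0303), -1.13 for Aldoa (0.0191) and -0.92 for Eno1 (0.0496). Slc2a1, Hk2, Pfkl and Ddit4 passed without any single library, but with female libraries only Hk2 (0.131) and Ddit4 (0.0697) did not. Aldoa did not without control liver 2 (0.054), and Ankrd37 did not without control liver 1 or 3 (up to 0.0608). Pdk1 did not without control liver 1 or 3, KO-labelled liver 1 or 3, KO-labelled lung 2 or 3, or control lung 1 or 3 (up to 0.0715). Eno1 passed only when KO-labelled liver 2 or KO-labelled lung 2 was the library left out (otherwise up to 0.118).

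For heart minus liver, the differences were 1.76 for Hif1a (0.00133), 1.37 for Pgk1 (0.00822), 1.32 for Pgam1 (0.00692), 1.16 for P4ha2 (0.0389) and 1.07 for Eno1 (0.0331). They were 1.04 for Tpi1 (0.039), 0.80 for Hk1 (0.033) and -2.26 for Ddit4 (0.000832). Hif1a, Pgk1, Pgam1 and Ddit4 passed without any single library. Hk1 did not without control liver 1 or 3, KO-labelled liver 2 or 3, KO-labelled heart 1 or either heart control (up to 0.116). Tpi1 did not without control liver 1 or 3, control lung 1 or 3 or any heart library (up to 0.165). Eno1 did not without control liver 1 or 3 or any heart library (up to 0.113). P4ha2 did not without any liver control, either KO-labelled heart library or control heart 1 (up to 0.168).

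For heart minus lung, the differences were 3.38 for Slc16a3 (0.00646), 3.06 for Hk2 (0.0217), 3.0 for Slc2a1 (0.0121), 2.25 for Pgk1 (0.000696) and 1.99 for Eno1 (0.00184). They were 1.81 for Pdk1 (0.00969), 1.74 for Pfkfb4 (0.0155), 1.72 for Hif1a (0.00246), 1.63 for Tpi1 (0.00565) and 1.59 for Pgam1 (0.00347). The last were 1.58 for Pkm (0.0196), 1.36 for Gapdh (0.0109), 1.26 for Pfkl (0.0176) and -1.0 for Egln1 (0.0266). Slc16a3, Pgk1, Eno1, Hif1a, Tpi1 and Pgam1 passed without any single library. Hk2 did not without KO-labelled heart 1 or control heart 2 (up to 0.107), and Pfkl did not without KO-labelled heart 1 or control heart 1 (up to 0.0883). Pfkfb4, Pkm and Slc2a1 did not without KO-labelled heart 1 or either heart control (up to 0.0855, 0.0909 and 0.0649). Gapdh and Pdk1 did not without control heart 1 (0.0658 and 0.0564). Egln1 did not without control lung 1, either KO-labelled heart library or control heart 2, and was -0.63 without control heart 2 (up to 0.138).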

How the results depend on the processing

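No direction of a reported change reversed under any alternative run. RLE size factors moved the median of all genes by at most 0.0235 on the log2 scale. With only female libraries, calls over all genes numbered 2226 in liver, 513 in lung and 2450 in heart, 429 for lung minus liver, 516 for heart minus liver and 570 for heart minus lung, and 2 of the 39 genes passed in lung. DESeq2 called 2054, 2644 and 2127 genes for these 3 differences, with 13 of the 39 for each of the first 2. Fitting only the tissues compared left 4 of the 39 for heart minus liver and gave 25 between control heart and control lung. The cause of these shifts was not tested. Besides calls lost without single libraries, female libraries only ended those of Ldha in liver and Higd1a in lung (adjusted p = 0.0571 and 0.0921) and of P4ha2 in liver. The same holds for the lung minus liver calls of Hk2 and Ddit4.

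Leaving out 1 library at a time, members called ranged over 12 to 21 in liver (18 with all), 3 to 10 in lung (9) and 14 to 25 in heart (23). They ranged over 5 to 16 for lung minus liver (8), 4 to 11 for heart minus liver (8) and 8 to 16 for heart minus lung (14). Between controls they ranged over 16 to 23 (lung, liver), 11 to 22 (heart, liver) and 10 to 19 (heart, lung). Calls over all genes ranged over 2622 to 3968 in liver, 917 to 2087 in lung, 1793 to 4243 in heart, 807 to 1269 for lung minus liver, 711 to 1780 for heart minus liver and 467 to 1671 for heart minus lung. Between controls they ranged over 7877 to 9463 (lung, liver), 6743 to 9529 (heart, liver) and 3467 to 6242 (heart, lung). The lowest lung count came without KO-labelled lung 3 and the lowest heart count without control heart 2. A lone heart library is assumed to vary like the other groups.

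Replicate numbers were checked for pairing only between the KO-labelled and control libraries of 1 tissue. Deviations of same-numbered libraries correlated at -0.01, 0.31 and 0.13 in liver and -0.11, -0.09 and 0.05 in lung. The heart value was 0.11, where 2 libraries a group give a single value. Whether same-numbered libraries of different tissues shared an animal was not tested. Comparisons between tissues treat all libraries as independent. In heart the numbers are those of the titles, and the control titled 2 is numbered 3 in its description, so the heart pair rests on a doubtful number. With a replicate block, 15, 6 and 22 of the 39 genes passed in liver, lung and heart, and 6, 8 and 13 for lung minus liver, heart minus liver and heart minus lung. Depth limits the low genes most (Aldoc, Eno2, Car9, Ankrd37 and Hif3a in liver).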
